A study of Arabidopsis thaliana with 6 samples.

Results

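KNOX and BELL proteins are the plant homeodomain transcription factors of the TALE class. Described here are 8 of their genes in Arabidopsis thaliana siliques, the seed pods: the KNOX genes KNAT1 (also BP), KNAT2, KNAT3, KNAT6 and KNAT7, and the BELL genes RPL, BLH2 and BLH6. They were taken by locus from a table of 27628 loci, and all 8 were present and passed the filter on low counts. The series set siliques with the genotype label shp1 shp2 mrpl1, a triple mutant, beside wild type (WT) siliques, with 3 libraries each. Both sets of plants were raised on Murashige and Skoog medium with sucrose under long days. SHP1 and SHP2 are MADS-box factors of the valve margin, where the pod opens, and the title ties SHP to a thin shell and to the mitochondrial unfolded protein response. The labels give no locus for mrpl1, no allele, no silique age and no number of plants per library. Nothing states that the 3 samples of a group were separate plants, so p-values reflect only how far these samples vary, and that variation may be technical.

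KNOX proteins bind DNA together with BELL proteins, and the pairing decides where in the cell the complex resides and which genes it reads. Class I KNOX genes keep meristem and boundary cells undifferentiated, while class II genes act in differentiating organs and in secondary walls. In the fruit, RPL sets the identity of the replum, the ridge between the valves, and keeps SHP genes off there, and KNAT1 is expressed in the same tissue. The leaf and valve gene AS1 keeps KNAT1 out of the valves. Further out, KNAT7 and BLH6 form a pair that restrains secondary wall formation in stem fibres.

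The libraries held 17857873 to 20957661 estimated counts in the mutant-labelled group, against 19969915 to 21603816 in WT. Levels are given as CPM, counts scaled to a common library size by TMM, which evens out composition between libraries. Of the genes in the genotype, SHP1 had 26.9, 31.5 and 28.4 CPM in mutant-labelled replicates 1 to 3, against 42.3, 37.5 and 43.5 CPM in WT. SHP2 averaged 106 ± 3.79 CPM in the mutant-labelled libraries and 107 ± 2.86 CPM in WT (SD, n = 3 each). MRPL1, taken as AT2G42710 from its product, averaged 17.1 ± 1.05 CPM in the mutant-labelled libraries and 14.5 ± 1.35 CPM in WT. Only SHP1 was called (edgeR adjusted p = 0.00242), so directions below are between libraries as labelled. Replicate 1 stood apart in both groups. Its count differences from its mates, as chi-square per degree of freedom, were 8.79 and 7.40 in the mutant-labelled group and 11.5 and 11.6 in WT, against 2.81 and 2.49 between replicates 2 and 3.

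The silique label was checked against marker genes. FUL, a valve identity gene, lay between 32.7 and 39.9 CPM in the mutant-labelled libraries and between 42.3 and 46.7 CPM in WT. The wall and carpel markers did not move together. SHP2 had a log2 fold change of −0.01 and IND 0.31, and neither was called. Of the 4 markers in that list, edgeR called 1, FUL, and DESeq2 called 0. CRC, a gene of young carpels, had at most 0.192 CPM in any library. Seed markers were abundant. STK, CRU1, OLE1 and BAN together summed to 24970 to 27140 CPM in the mutant-labelled libraries, against 32420 to 33090 CPM in WT. Nearly all of that sum was CRU1 and OLE1, and these 2 of the 4 fell. The other 2, STK and BAN, had log2 fold changes of 0.09 and 0.12 and were not called. An antisense transcript shares 9.51% of the 50-base windows of the STK transcript. Of the shoot meristem markers, WUS and CLV3 had at most 0.252 and 0.353 CPM, while STM, itself a class I KNOX gene, lay between 8.99 and 11.7 CPM. The young flower marker LFY had at most 0.164 CPM and AP1 at most 4.68 CPM. The petal and stamen genes AP3, PI and AMS summed to between 77.1 and 89.2 CPM in the mutant-labelled libraries and 70.9 to 77.7 CPM in WT, nearly all of it AP3, and 0 of 3 were called by edgeR. DESeq2 called 0 and limma voom 1, PI, which also had an unadjusted edgeR p under 0.05. Limma voom called 4131 of 20827 tested genes. In whole siliques, fewer cells of a type and less RNA per cell cannot be told apart, and the part of seed content in the values below was not tested.

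The sources used here do not name the genome build behind the counts. Positions are those of the TAIR10.1 RefSeq annotation, matched by locus. KNAT1 (AT4G08150) lies on the minus strand of chromosome 4 at 5147699 to 5151159, with 5 exons in the counted transcript. The other class I genes are on chromosome 1, KNAT6 (AT1G23380) on the minus strand at 8297241 to 8302651 and KNAT2 (AT1G70510) on the plus strand at 26576486 to 26582879. KNAT7 (AT1G62990) is on the plus strand of the same chromosome at 23337167 to 23340692, and KNAT3 (AT5G25220) on the plus strand of chromosome 5 at 8735944 to 8738601. Of the BELL genes, RPL (AT5G02030) is on the plus strand of chromosome 5 at 395567 to 399125. BLH2 (AT4G36870) and BLH6 (AT4G34610) lie on chromosome 4, BLH2 on the plus strand at 17368915 to 17374011 and BLH6 on the minus strand at 16530346 to 16533362. None of the 8 overlaps another annotated gene, and 0% of their 50-base transcript windows occur in another counted transcript. In that annotation no antisense neighbour or close copy would share their reads.

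All 8 genes were expressed in the silique, at very different levels. Levels are compared between genes as CPM per kb of transcript. KNAT7 was highest, with 80.1, 96.7 and 88.6 CPM per kb in mutant-labelled replicates 1 to 3, against 93.4, 86.5 and 86.9 in WT. Its mean was first among the 22 TALE genes of the table and above 94.8% of tested genes. BLH1, not among the 8, was second at 66.4 to 85.9 CPM per kb, a range that overlapped that of KNAT7. Of the 8, KNAT3 was next with 29.5 ± 0.602 CPM per kb in the mutant-labelled group and 32.2 ± 0.840 in WT (SD, n = 3 each). KNAT7 and KNAT3 are class II genes, and their ranges over the 6 libraries did not overlap.

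Among BELL members, BLH2 was highest with 21.0 ± 1.94 CPM per kb in the mutant-labelled libraries and 24.0 ± 2.56 in WT. RPL stood at 13.9 ± 1.74 and BLH6 at 12.0 ± 0.528 in the mutant-labelled libraries, against 13.7 ± 1.28 and 13.9 ± 0.823 in WT. The class I genes were lowest. KNAT1 had 9.33 ± 0.825 CPM per kb in the mutant-labelled libraries and 10.7 ± 0.984 in WT, and KNAT6 had 6.65 ± 0.273 in the mutant-labelled libraries and 6.82 ± 0.735 in WT. KNAT2 had 1.43 ± 0.206 in the mutant-labelled libraries and 1.29 ± 0.344 in WT. From KNAT7 down to KNAT2, neighbours in this order were separated over the 6 libraries, except RPL from BLH6 and BLH6 from KNAT1, whose ranges overlapped. KNAT2 rested on 35, 41 and 42 counts in the mutant-labelled libraries and 45, 40 and 25 in WT, so its value is the least precise of the 8.

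**Figure D1:**
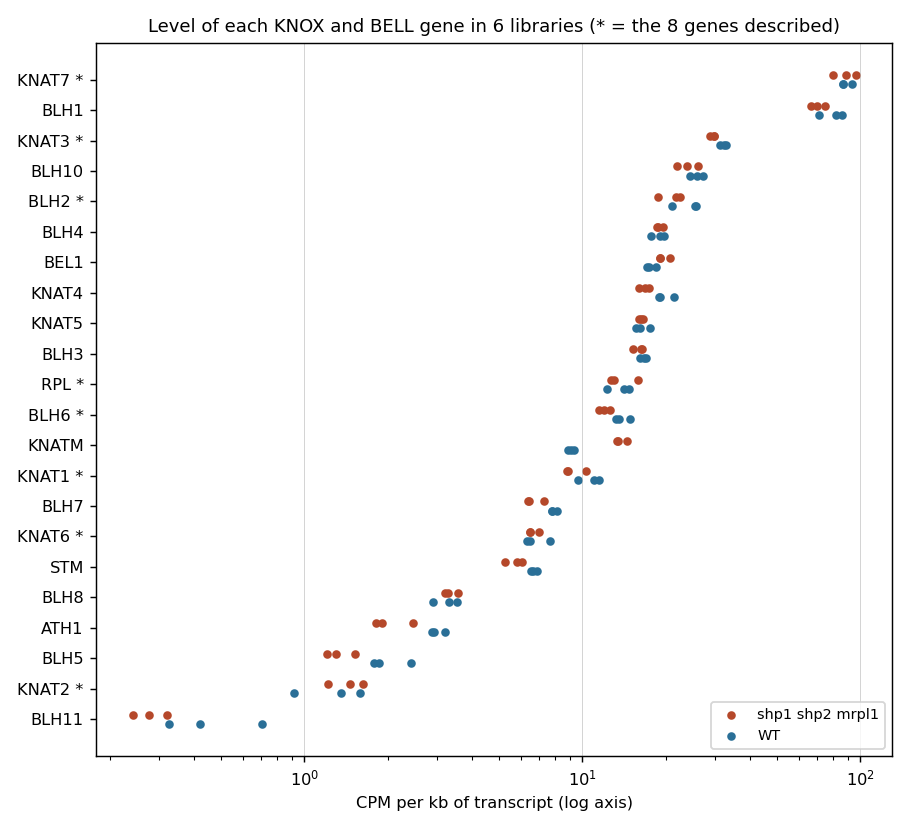
Level of each of the 22 KNOX and BELL genes as CPM per kb of transcript (log axis), one point per library, mutant-labelled in red above WT in blue, ordered by mean level; asterisks mark the 8 genes described. KNAT7 is at the top with 80.1 to 96.7 CPM per kb, and KNAT2 is next to last with 0.914 to 1.63.

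Summed per kb, the 4 class II KNOX genes (KNAT3, KNAT4, KNAT5, KNAT7) made up 35.4%, 40.1% and 38.5% of the TALE total in mutant-labelled replicates 1 to 3, against 39.3%, 36.6% and 37.0% in WT. The 4 class I genes (KNAT1, KNAT2, KNAT6, STM) made up 5.93%, 5.93% and 5.61% in the mutant-labelled libraries, against 6.35%, 6.04% and 5.91% in WT. The 13 BELL genes made up 55.3%, 50.3% and 52.5% in the mutant-labelled libraries and 52.0%, 55.3% and 55.0% in WT. The groups overlapped in each class, so none of these shares separated them. The class I sums themselves did not overlap. They were 23.8, 23.55 and 22.02 CPM per kb in mutant-labelled replicates 1 to 3, against 25.75, 25.41 and 25.37 in WT. The sums of class II KNOX and of BELL genes overlapped. No test was made on the sums, and 25.9% of single tested genes separated the groups fully.

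No member passed the test between genotypes. With edgeR's quasi-likelihood test and Benjamini-Hochberg adjustment over 20827 tested genes, 0 of 8 were called higher and 0 lower, where 8.95% of tested genes were called (4.89% higher and 4.07% lower). DESeq2 called 0, where it called 3.45% of tested genes lower. Limma voom called 2, KNAT1 and BLH2, both lower, where it called 9.67% of tested genes lower. One member, BLH6, had an unadjusted edgeR p under 0.05, as did 21.8% of tested genes. Of the 8, 6 had a log2 fold change below 0 and 2 above. Their median was −0.08, beside 0.00 over all genes tested, and they ranged from −0.21 for BLH6 to 0.15 for KNAT2. Mutant-labelled and WT libraries were fully separate for 2 of 8 members, KNAT3 and BLH6, and for 25.9% of tested genes.

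**Figure D2:**
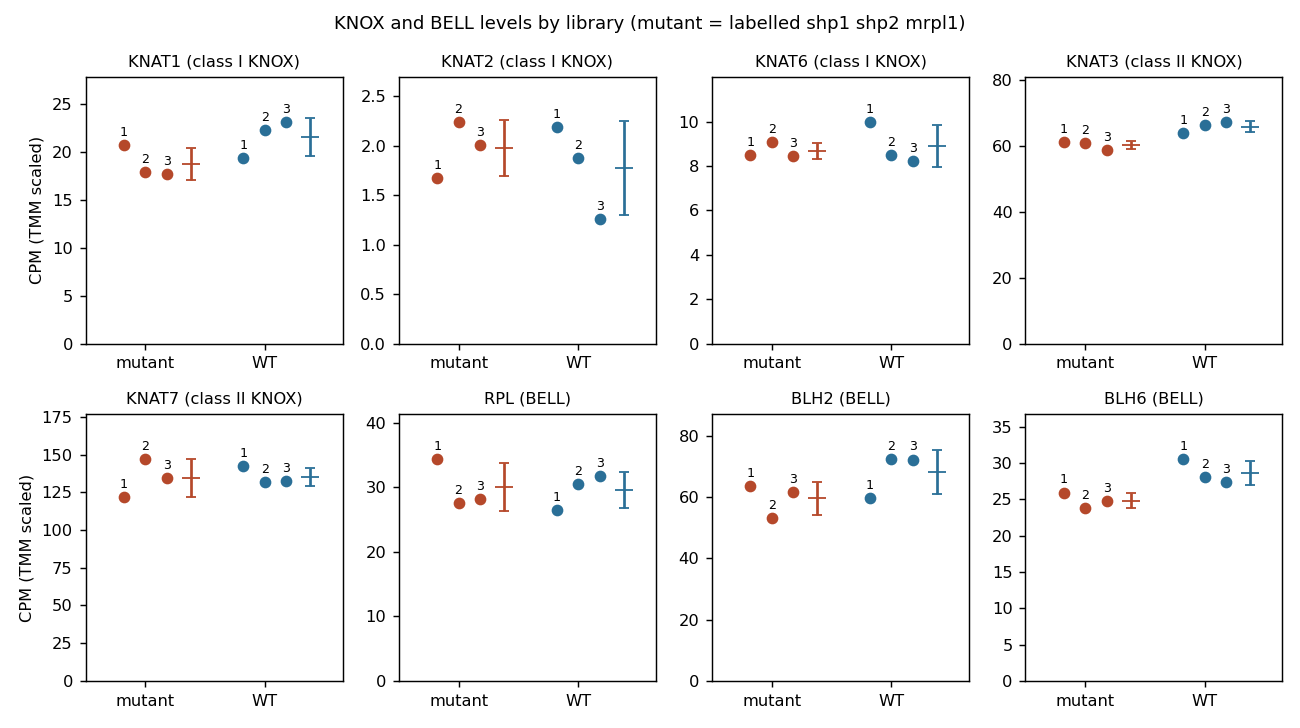
CPM of the 8 genes in each library, mutant-labelled left of WT in each panel; numbers beside points are replicates, and the bar beside each group is its mean with the SD. The groups are apart for KNAT3 and BLH6 and overlap in the other panels.

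The class I gene KNAT1 represses lignin genes in the stem and shapes pedicels and the replum. It had 20.7, 17.9 and 17.8 CPM in mutant-labelled replicates 1 to 3, against 19.4, 22.3 and 23.2 CPM in WT. Mutant-labelled replicate 1 lay above WT replicate 1, so the groups overlapped. The log2 fold change was −0.20 (SE 0.099; edgeR adjusted p = 0.259), which is 87.0% of the WT level with a 95% interval of 75.0% to 101%. It was −0.35 without replicate 1 of both groups (edgeR adjusted p = 0.0024), −0.28 with limma voom (adjusted p = 0.0327) and −0.15 without WT replicate 3 (edgeR adjusted p = 0.59), so its call depends on the libraries and the test used.

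KNAT2 and KNAT6 are close relatives that act against KNAT1 in the stem and pedicel, and KNAT6 also marks boundaries and the replum. KNAT6 had 8.49, 9.09 and 8.46 CPM in mutant-labelled replicates 1 to 3, against 9.999, 8.47 and 8.23 CPM in WT. All but WT replicate 1 were close together, and the log2 fold change was −0.04 (95% interval −0.29 to 0.21). KNAT2 had 1.68, 2.25 and 2.01 CPM in the mutant-labelled libraries, against 2.20, 1.87 and 1.26 CPM in WT. The groups overlapped, and the log2 fold change of 0.15 had a 95% interval of −0.38 to 0.67, wide enough to hold a change to 160% of the WT level.

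KNAT3, a class II gene that acts with KNAT4 and KNAT5 in organ growth and with KNAT7 in walls, had 61.1, 61.0 and 58.9 CPM in mutant-labelled replicates 1 to 3. In WT it had 64.0, 66.2 and 67.4 CPM. Every mutant-labelled library was below every WT library, but the gap was small beside the dispersion of the fit: the log2 fold change was −0.13 (SE 0.068; edgeR adjusted p = 0.301), or 91.6% of the WT level with a 95% interval of 82.8% to 101%. Without replicate 1 of both groups it was −0.16 (edgeR adjusted p = 0.05, just under the threshold).

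KNAT7, which is also known as IRX11 for its xylem defect, had 122, 147 and 135 CPM in mutant-labelled replicates 1 to 3, against 142, 132 and 132 CPM in WT. The mutant-labelled libraries spanned the WT range on both sides. Its level was 99.4% of WT with a 95% interval of 88.6% to 112%, the narrowest in log2 units after KNAT3.

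RPL had 34.4, 27.6 and 28.2 CPM in mutant-labelled replicates 1 to 3, against 26.5, 30.6 and 31.8 CPM in WT. The highest library was mutant-labelled replicate 1 and the lowest WT replicate 1, with the other 4 between them. The log2 fold change was 0.02 (95% interval −0.20 to 0.24; edgeR adjusted p = 0.926), and −0.16 without replicate 1 of both groups (edgeR adjusted p = 0.128), so that its direction turned with those libraries.

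BLH2, also called SAW1, acts with BLH4 (SAW2) to keep KNAT1 off at leaf margins. It had 63.5, 53.2 and 61.7 CPM in mutant-labelled replicates 1 to 3, against 59.7, 72.4 and 72.2 CPM in WT. WT replicate 1 fell inside the mutant-labelled range. The log2 fold change was −0.19 (SE 0.094; edgeR adjusted p = 0.252), or 87.4% of the WT level with a 95% interval of 76.0% to 101%. It became −0.28 without WT replicate 1 (edgeR adjusted p = 0.0308; 6.98% of tested genes were called lower in that fit), −0.33 without replicate 1 of both groups (edgeR adjusted p = 2.46e-05) and −0.25 with limma voom (adjusted p = 0.0358). It shrank to −0.12 without mutant-labelled replicate 2 (edgeR adjusted p = 0.605) and after the length correction (edgeR adjusted p = 0.186).

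BLH6, the BELL partner of KNAT7, had 26.0, 23.8 and 24.8 CPM in mutant-labelled replicates 1 to 3, against 30.6, 28.0 and 27.4 CPM in WT. The groups did not overlap. The log2 fold change was −0.21 (SE 0.081; edgeR adjusted p = 0.151), or 86.7% of the WT level with a 95% interval of 76.8% to 97.9%. It was below 0 in each of 16 alternatives, between −0.24 and −0.16, and passed the threshold in 0 of them (adjusted p between 0.0829 and 0.372).

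Replicate 1 moved 7 of the 8 genes in opposite directions in the groups, as it did 69.8% of tested genes. RPL in replicate 1 was above the mean of its mates by a log2 difference of 0.30 in the mutant-labelled group, and in WT it differed from them by −0.23. KNAT1 showed 0.21 in the mutant-labelled group and −0.23 in WT, and BLH2 0.15 in the mutant-labelled group and −0.28 in WT. KNAT7 went the other way, with −0.21 in the mutant-labelled group and 0.11 in WT, and so did KNAT2, with −0.32 in the mutant-labelled group and 0.49 in WT. BLH6 was the exception, above its mates by 0.10 in the mutant-labelled group and 0.14 in WT. Without replicate 1 of both groups 3 of 8 members, KNAT1, KNAT3 and BLH2, were called lower, where 15.8% of tested genes were. In that fit the tie between log2 fold change and transcript length was closer (Spearman's rho −0.45 across 20794 genes, against −0.25 with all libraries; genes are not independent replicates). The called members there have transcripts of 2016, 2046 and 2833 bases, and KNAT2, KNAT6 and KNAT7, of 1380, 1306 and 1521 bases, had log2 fold changes above 0. BLH6 and RPL, of 2066 and 2168 bases, had −0.19 and −0.16 and were not called there (edgeR adjusted p = 0.0829 and 0.128). The part of length in these values was not tested. A length correction was made only in the fit with all libraries, where 0 of 8 were called lower without it as well. With it 0 of 8 were called lower, beside 7.21% of tested genes. That fit says nothing on the 3 calls made without replicate 1.

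**Figure D3:**
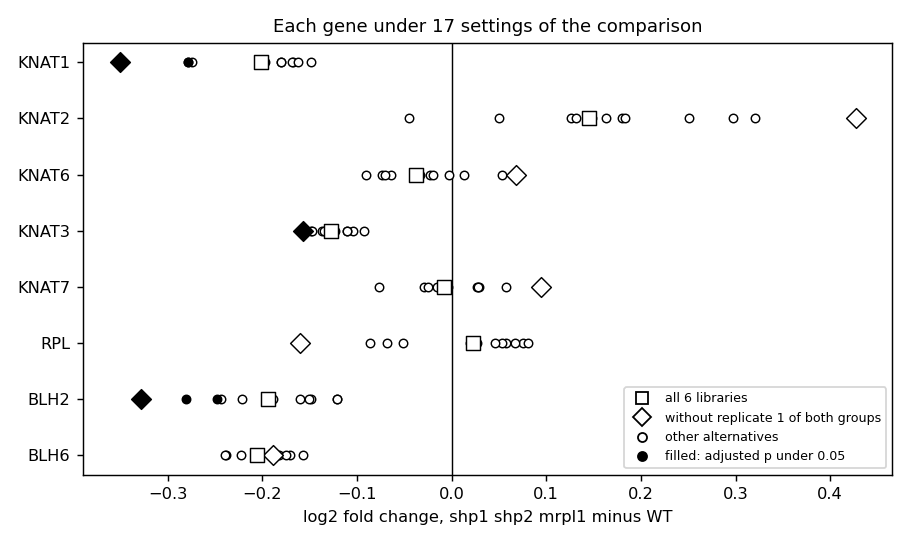
Log2 fold change of each gene (mutant-labelled minus WT) with all libraries (squares), without replicate 1 of both groups (diamonds) and under the other alternatives (circles); filled symbols passed an adjusted p of 0.05. KNAT1, KNAT3 and BLH2 have filled diamonds, and BLH6 stays between −0.24 and −0.16 with no filled symbol.

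The relation of partners within a library does not depend on scaling between libraries. KNAT1 and RPL proteins form a pair in the shoot, and the ratio of their CPM was 0.603, 0.650 and 0.629 in mutant-labelled replicates 1 to 3, against 0.733, 0.729 and 0.730 in WT. In each group replicate 1 deviated the same way for both genes. The ratio was lower in each mutant-labelled library than in each WT library. Among single tested genes 25.9% separated the groups fully, and the share among gene pairs was not computed. The ratio of BLH6 to KNAT7 was 0.213, 0.162 and 0.184 in the mutant-labelled libraries and 0.215, 0.213 and 0.207 in WT, where mutant-labelled replicate 1 fell inside the WT range. These pairs were chosen after the values were seen, and no test was made on the ratios.

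Of the other 14 TALE genes, 13 were tested. By edgeR 1 rose, 1 fell and 11 were not called, beside 4.89% higher and 4.07% lower calls among all tested genes. Limma voom called 1 higher and 4 lower, adding KNAT4, BLH1 and BLH7. Of 20827 tested genes it called 4131, and 9.67% were called lower. KNATM, a KNOX gene whose protein lacks a homeodomain and binds BELL proteins, had 11.4, 12.4 and 11.4 CPM in mutant-labelled replicates 1 to 3, against 7.95, 7.72 and 7.57 CPM in WT. It rose to 151% of the WT level (log2 fold change 0.60, SE 0.102; edgeR adjusted p = 0.00237), and the groups were far apart. The call held in each of 16 alternatives, with log2 fold changes between 0.51 and 0.63. An antisense gene overlaps KNATM by 28 bases.

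ATH1, a BELL gene of shoot boundaries and stem growth, fell. It had 5.95, 4.38 and 4.64 CPM in mutant-labelled replicates 1 to 3, against 6.98, 7.12 and 7.77 CPM in WT, with every mutant-labelled library lower. The log2 fold change was −0.54 (SE 0.141; edgeR adjusted p = 0.0298), or 68.7% of the WT level. The call was lost without WT replicate 2 (adjusted p = 0.0684), WT replicate 3 (adjusted p = 0.126), mutant-labelled replicate 2 (adjusted p = 0.124) or mutant-labelled replicate 3 (adjusted p = 0.145) in edgeR, with log2 fold changes between −0.56 and −0.46. With the replicate number as a block it was also lost (edgeR adjusted p = 0.1).

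The nearest relatives of the members were not called by edgeR with all libraries. STM, the class I gene of the shoot meristem, differed by −0.22 on the log2 scale (edgeR adjusted p = 0.22), at 9.88, 10.4 and 8.99 CPM in the mutant-labelled libraries, against 11.7, 11.1 and 11.3 CPM in WT. KNAT4, a class II relative of KNAT3, had −0.24 (edgeR adjusted p = 0.0727), and was called without WT replicate 1 (−0.27, adjusted p = 0.0358) and by limma voom (adjusted p = 0.0301). It ranged from −0.28 to −0.18 over the alternatives. KNAT5 had −0.02. BLH4, which acts with BLH2, had 0.01 (95% interval −0.15 to 0.17). BLH1, the most abundant BELL gene per kb, had −0.18 (edgeR adjusted p = 0.196). It was called without WT replicate 1 (−0.25, adjusted p = 0.0211) and by limma voom (−0.24, adjusted p = 0.0177). It was smaller after the length correction (−0.12, edgeR adjusted p = 0.11) and without WT replicate 3 (−0.12, adjusted p = 0.565). An antisense gene overlaps BLH1 by 1246 bases. BEL1, for ovule integuments, had 0.15; with the length correction it was called at 0.21 (adjusted p = 0.0111 by edgeR). BLH5, at 2.02, 2.36 and 1.86 CPM in the mutant-labelled libraries, against 3.76, 2.76 and 2.88 CPM in WT, had −0.60 (edgeR adjusted p = 0.0853, and adjusted p = 0.0397 after the length correction). BLH7 had −0.25 (limma voom adjusted p = 0.046), BLH10 −0.11, BLH3 −0.06 and BLH8 0.04, and BLH11 did not pass the filter. Without replicate 1 of both groups, edgeR called KNAT4 (adjusted p = 0.00513), BLH1 (adjusted p = 4.82e-06) and BLH10 (−0.21, adjusted p = 0.00828) lower. In that fit 15.8% of tested genes were called lower. Over the 13 tested genes the median with all libraries was −0.11.

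**Figure D4:**
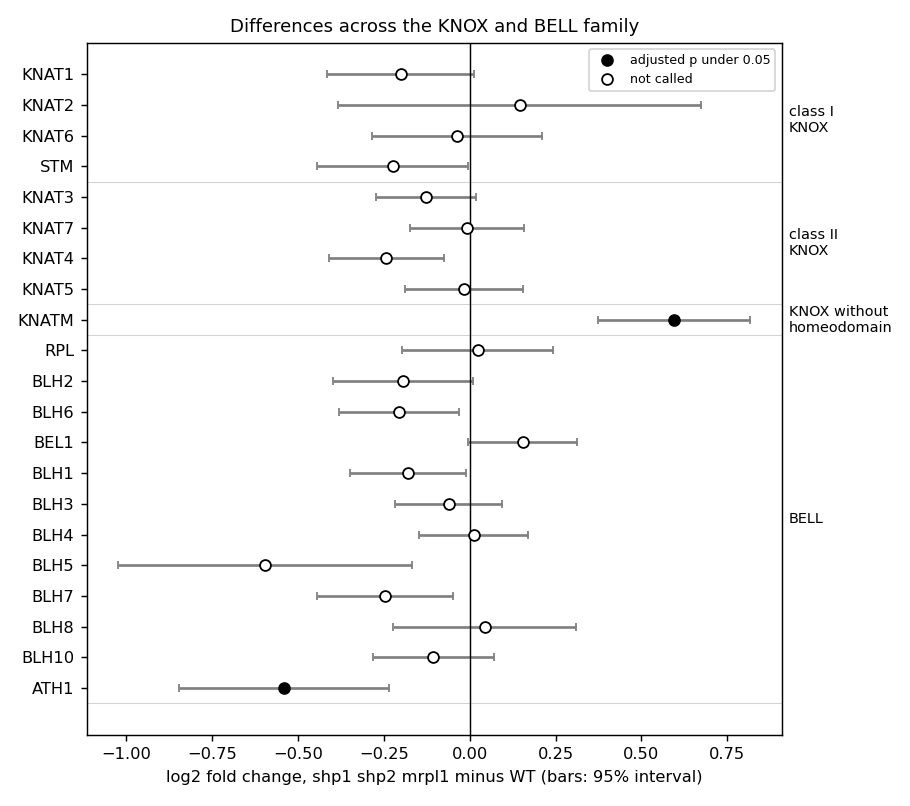
Log2 fold change (mutant-labelled minus WT) of the 21 tested KNOX and BELL genes with 95% intervals, by class; filled symbols passed an adjusted p of 0.05. KNATM at 0.60 and ATH1 at −0.54 are filled, and the 8 genes described are open, between −0.21 and 0.15.

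Of 10 tested genes that act on KNOX and BELL expression or in the same fruit regions, 0 rose and 3 fell by edgeR. Among all tested genes 4.07% were called lower. The list was chosen with earlier results of these data known, so the count is no test of the regulators as a group. DESeq2 called 0 of this list. Limma voom called 4 lower, these 3 and FIL, where it called 9.67% of tested genes lower. AS1, which keeps class I KNOX genes off in leaves and valves, had 26.2, 24.8 and 25.3 CPM in mutant-labelled replicates 1 to 3, against 31.1, 28.7 and 33.2 CPM in WT (−0.28, SE 0.082; edgeR adjusted p = 0.047). An antisense gene shares 15% of its 50-base windows, so its count is uncertain. YAB3, which acts with FIL in valves, averaged 18.2 ± 0.854 CPM in the mutant-labelled libraries and 22.7 ± 0.638 CPM in WT (SD, n = 3 each; log2 fold change −0.32; edgeR adjusted p = 0.0268). FUL differed by −0.30 on the log2 scale (edgeR adjusted p = 0.0477). All 3 calls were near the threshold and were lost in 8 (AS1), 6 (YAB3) and 9 (FUL) of 16 alternatives, the DESeq2 test among them for each. Without 1 library, AS1 lost its call for WT replicate 3 and each mutant-labelled replicate (edgeR adjusted p 0.0522 to 0.21). YAB3 lost it for WT replicates 2 and 3 and mutant-labelled replicates 2 and 3 (0.102 to 0.135), and FUL for each library but mutant-labelled replicate 2 (0.0586 to 0.2). FIL (−0.22), JAG (−0.44), AS2 (0.21), CUC1 (0.40), CUC2 (−0.44), BOP2 (−0.25) and AP2 (0.05) were not called by edgeR. An antisense transcript shares 14.1% of the windows of BOP2, so its count is uncertain too. BOP1 did not pass the filter, with 4, 1 and 2 counts in the mutant-labelled libraries and 0 in each WT library. The median of the 10 was −0.27.

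OVATE family, MYB and TRM genes, listed as partners or as genes of the same complexes, showed 0 calls among 5 tested by edgeR. DESeq2 called 0 as well. Limma voom, which called 4131 of 20827 tested genes, called 2, the only 2 with an unadjusted edgeR p under 0.05. They were MYB5, a seed coat regulator, at 0.22 (edgeR adjusted p = 0.0727), and TRM1 at −0.32 (adjusted p = 0.176). An antisense gene's counted transcript shares 96.6% of the windows of MYB5, so the value cannot be assigned to MYB5. OFP1, whose protein binds KNAT7, had −0.09, and MYB75, another partner of KNAT7, −0.10. OFP5 had −0.22 (edgeR adjusted p = 0.457), with 46% of its windows shared with an antisense transcript. OFP4 did not pass the filter.

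Of 13 tested genes listed as targets of KNOX and BELL factors, 0 rose, 6 fell and 7 were not called by edgeR. Among all tested genes 4.07% were called lower. This list too was chosen with earlier results of these data known, so the count is no test of the targets as a group. The 6 were the lignin genes PAL1, OMT1 and CCOAOMT1 and the secondary wall cellulose synthase genes CESA4, IRX3 (CESA7) and IRX1 (CESA8). CESA4 averaged 137 ± 12.4 CPM in the mutant-labelled libraries and 242 ± 19.9 CPM in WT (SD, n = 3 each; log2 fold change −0.82, SE 0.082; edgeR adjusted p = 4.21e-05). CCOAOMT1, for a lignin methyltransferase, averaged 729 ± 30.2 CPM in the mutant-labelled libraries and 904 ± 51.4 CPM in WT (−0.31; edgeR adjusted p = 0.00691), and lost its call with the replicate block (edgeR adjusted p = 0.0993). The counts of IRX1 are uncertain, since an antisense gene's counted transcript shares 13.1% of its windows. IRX9, for xylan synthesis, differed by 0.26 on the log2 scale (edgeR adjusted p = 0.0718), and was called higher by limma voom. REV, which BLH6 and KNAT7 repress in stems, had 0.01 (95% interval −0.19 to 0.22).

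Hormone genes in this list were not called. GA20OX1, a gibberellin synthesis gene that class I KNOX proteins repress, had −0.16 at no more than 1.26 CPM in any library. The gibberellin breakdown genes GA2OX2 and GA2OX4 had −0.24 and −0.29, and the cytokinin synthesis gene IPT5 had −0.70 with a 95% interval of −1.29 to −0.11 (edgeR adjusted p = 0.142). IPT7 did not pass the filter. PME5, a pectin methylesterase gene that RPL represses in the shoot meristem, had −0.12. In the valve margin, which RPL confines, IND had 6.67, 8.82 and 6.50 CPM in mutant-labelled replicates 1 to 3, against 6.78, 5.62 and 5.20 CPM in WT (0.31; edgeR adjusted p = 0.257). ALC had −0.02, with 59.2% of its windows shared with an antisense transcript, so SHP1 was the 1 called gene of the 4 in that list.

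**Figure D5:**
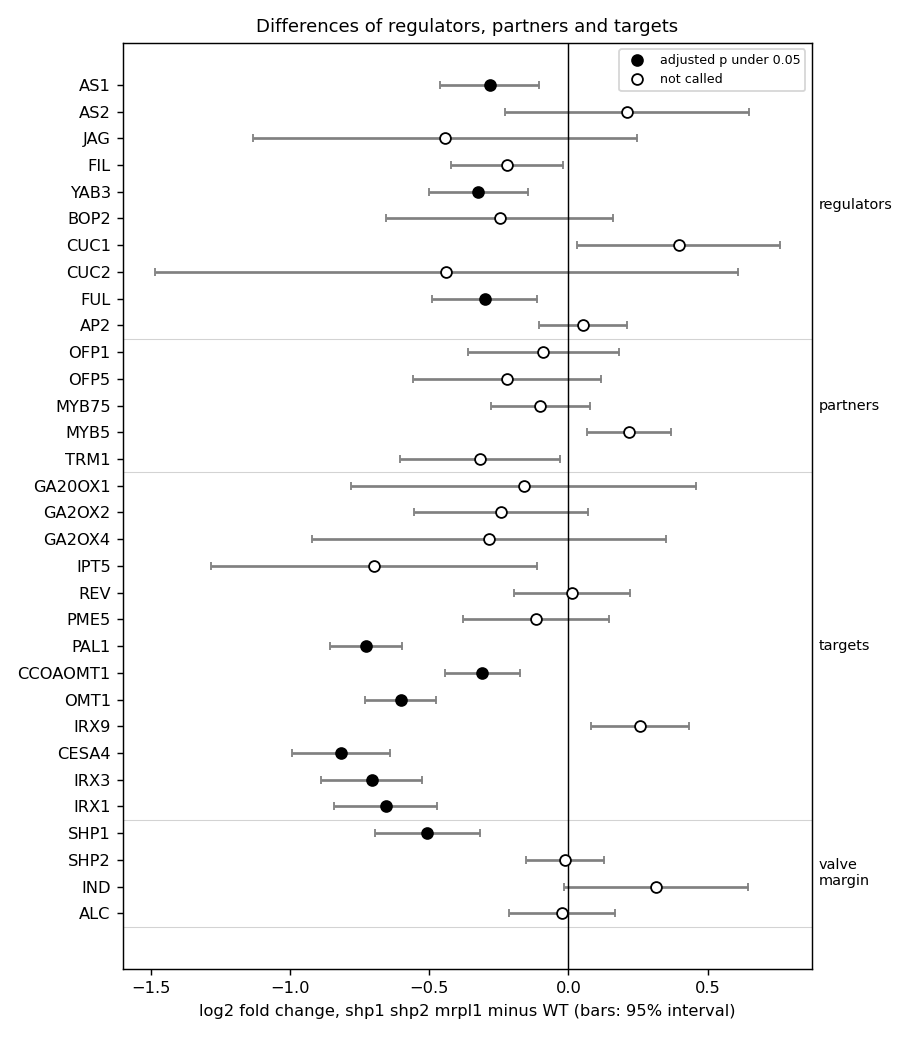
Log2 fold change (mutant-labelled minus WT) with 95% intervals of tested regulators, partners, targets and valve margin genes; filled symbols passed an adjusted p of 0.05. The filled targets lie between −0.82 and −0.31, while the filled regulators lie between −0.32 and −0.28.

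The genes whose pattern was most like that of BLH6, the member with the smallest unadjusted p, were AT1G68580, TED6 and MYB69. Pearson's r of log2 CPM over the 6 libraries, which share group and depth, was 0.99 for each. They were picked for the highest r among all tested genes, so neither r nor the differences that follow test a link. TED6 had 3.26, 2.63 and 3.20 CPM in mutant-labelled replicates 1 to 3, against 5.95, 4.49 and 4.04 CPM in WT (log2 fold change −0.67; edgeR adjusted p = 0.0379). MYB69 had −0.48 (edgeR adjusted p = 0.0897) and AT1G68580 −0.09 (edgeR adjusted p = 0.55).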

How the data were processed

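RNA from siliques was sequenced in 6 libraries, grouped by the genotype in the labels. The authors deposited 1 table of estimated counts per transcript, and between 2.95% and 3.47% of values per library were not whole (tolerance 1e-09). Per the submitters' processing notes, HISAT2, featureCounts 1.6.3, DESeq2, FastQC 0.11.9 and Trimmomatic 0.39 were used, with no role given. The sources used here do not give the build, the annotation or a strand setting. Of 27628 identifiers, 27419 matched a TAIR10.1 RefSeq transcript, which gave lengths, symbols and overlaps. RefSeq symbols differ for BLH10 (BEL10), FIL (AFO), FUL (AGL8), MYB75 (PAP1) and TRM1 (LNG2).

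Counts were rounded and fitted with edgeR 4.0.16 in R 4.3.3 (TMM, filter at minimum count 10 and total 15, robust quasi-likelihood test, genotype as the only term). Adjustment was over all tested genes, with a threshold of 0.05. Intervals of 95% come from the SE, taken as the log2 fold change over the square root of F, and the test's degrees of freedom. The fit was tested on simulated data. CPM per kb divides CPM by the length of the counted transcript.

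The members and lists were chosen with earlier results of these data known. Named are all members, all list genes, and the 3 genes best correlated with the member of smallest unadjusted p (prior count 2). Alternatives were DESeq2 1.42.0 size factors and test, limma 3.58.1 voom with quality weights, other scalings and filters, a replicate block, a length correction and left-out libraries.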

Additional observations from a re-analysis of the deposited data

How the results depend on the processing

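Depth limits KNAT2 most, at 25 to 45 counts per library. Over all genes, counting error alone does not cover the spread between libraries of a group, with a chi-square per degree of freedom of 2.49 or more. This was not examined for KNAT2 alone. Of the 8 members 0 were called higher in all 16 alternatives. Lower calls numbered 2 with limma voom, 3 without replicate 1 of both groups and 0 to 1 when single libraries were left out, and 0 in the other alternatives; the cause was not tested. Calls over all genes, 1865 with all libraries, numbered 4131 with limma voom, 795 with the replicate block, 3296 after the length correction, 6492 without replicate 1 of both groups and 1004 to 3002 when single libraries were left out.

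KNAT1, KNAT3, BLH2 and BLH6 kept a log2 fold change below 0 in each alternative. Members near 0 changed sign. KNAT6 was 0.0135 with limma voom and 0.0686 without both replicates 1, KNAT7 0.0268 with library totals, 0.0286 with limma voom and 0.0942 without both replicates 1, and RPL −0.0682 with limma voom and −0.16 without both replicates 1. With single libraries left out, KNAT2 lay between −0.0447 and 0.32, KNAT6 between −0.0901 and 0.0536, KNAT7 between −0.0767 and 0.0579 and RPL between −0.0861 and 0.0810. Of the other TALE genes KNAT5 was 0.0177 with library totals, BLH4 −0.0255 with limma voom and −0.0552 without both replicates 1, and BLH8 −0.0098 and −0.0223 in the same fits. Their ranges with single libraries left out were −0.0533 to 0.0341 for KNAT5, −0.03 to 0.0425 for BLH4 and −0.0327 to 0.11 for BLH8.

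Replicate numbers did not pair the samples: deviations of same-numbered libraries from their group means correlated at −0.36, −0.19 and −0.12, and no library correlated best with its own number. With the replicate block 0 of 8 members were called.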
